A study of Homo sapiens with 6 samples.

Results

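ODC1 and NME1, 2 of the 403 genes in the comparison table, are described here in HCCLM3 cells given ginkgolic acid or its vehicle. They were chosen by name from that table, which had itself been selected on the same libraries. Both were lower with ginkgolic acid, to 40.5% of the DMSO mean for ODC1 and to 39.9% for NME1. The values of this contrast chose the genes, so their differences are given as a description, with no test.

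ODC1 encodes ornithine decarboxylase, which converts ornithine to putrescine and is the rate-limiting enzyme of polyamine synthesis. Polyamines bind nucleic acids and are needed for growth, and spermidine is the donor for hypusine in the translation factor eIF5A. NME1 encodes a nucleoside diphosphate kinase, which passes a phosphate from ATP to other nucleoside diphosphates and so maintains the triphosphates used for RNA and DNA. NME1 was named NM23 as a gene of lower expression in metastatic tumour cells. Both genes are known targets of the transcription factor MYC, which binds the E-box motif, and both are commonly high in dividing tumour cells.

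HCCLM3 is a human hepatocellular carcinoma cell line of high metastatic potential, here with a wild-type genotype. In the treated group the cells received 10 µM ginkgolic acid, a salicylic acid with a long alkyl chain found in Ginkgo biloba, for 24 h, and in the control group they received DMSO for 24 h. Each group had 3 libraries of total RNA. All libraries come from 1 cell line, and the labels do not say whether replicates were separate cultures, so the spread between them may be technical. Because these are bulk samples, less RNA per cell and fewer cells that express a gene cannot be told apart.

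The table holds genes with an adjusted p-value under 0.05 and a log2 fold change above 1 in size in the authors' deposited table. Over these genes the libraries had between 67006 and 98627 reads. The values are normalised read counts, that is, reads divided by a size factor that lay between 0.921 and 1.14. Reads and counting errors given here are inferred from the step between values. The authors' p-values imply that 16104 genes were tested and that at least 5316 of them, 33.0%, had an adjusted p-value under 0.05, whatever the size of the change. The 403 genes of the table are 2.50% of those tested. Of 12 hepatocyte markers the table holds ALB (albumin) alone, at 19.1 ± 5.97 normalised read counts with DMSO and 5.30 ± 3.83 with ginkgolic acid (SD, n = 3 each), and of 14 markers of fibroblasts, leukocytes and endothelium it holds 0. The labelled cell type could therefore not be checked on these genes.

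The start regions of both genes carry the E-box letters CACGTG, and these stretches are shown because the E-box is the motif that MYC, the factor both genes are known for, binds. The sequences are from RefSeq on GRCh38.p14, in windows of 300 bases (250 before an annotated start and 50 from it on). They read 5′ to 3′ on the gene's strand, with the motif in capitals.
ODC1 E-box 1 (chr2:10448024-10448053, minus strand): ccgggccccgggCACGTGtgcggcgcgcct
ODC1 E-box 2 (chr2:10447990-10448019, minus strand): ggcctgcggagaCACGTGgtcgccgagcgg
NME1 E-box (chr17:51153579-51153608, plus strand): caagtgctgcgaacCACGTGggtcccgggc
ODC1 TATA letters (chr2:10448342-10448371, minus strand): acccgccggtgcTATAAgtagggagcggcg

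The ODC1 E-boxes begin 287 and 321 bases downstream of its upstream RefSeq start, 34 bases apart. They lie in an intron of the 2 annotated transcripts that span them, and in an exon of none of the 4 ODC1 transcripts of GENCODE release 29. A further RefSeq start of ODC1 lies between them, so they fall in that window. E-box 1 begins 29 bases before that start, and E-box 2 begins at base 6 counted from it. The NME1 E-box begins 35 bases into the RefSeq transcript, in an exon of 6 of the 10 annotated NME1 transcripts and in the coding sequence of none. CACGTG, which reads the same on both strands, was present in 7.26% of all 35116 promoter windows, and 0.664% held it at least 2 times. By gene, 8.77% of 27305 genes held it in a window, and 10.9% of the 15843 protein-coding genes. ODC1 was searched over 2 windows and NME1 over 1. Of the lower genes of the table with a window, 10 of 76 held it (13.2%), and of the higher genes 15 of 130 (11.5%). TATAA (either strand) was present at ODC1, where it begins 32 bases before the start, and not in the NME1 window. It was in 20.4% of all windows and in 16.5% of those of protein-coding genes. GGGCGG (either strand), the letters of a GC box, was in both ODC1 windows and not in the NME1 window. It was in 45.0% of all windows and in 56.3% of those of protein-coding genes. These are matches of letters, and binding was not measured.

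ODC1 (ENSG00000115758) lies on chromosome 2, from 10439968 to 10448504 on the minus strand of hg38, and is protein-coding. Its normalised read counts were 1187, 1357 and 1298 in DMSO replicates 1, 2 and 3, and 519.3, 528.9 and 507.3 in ginkgolic acid replicates 1, 2 and 3. All treated libraries were low, all DMSO libraries were high, and the lowest DMSO library stood 658.2 above the highest treated one. The group means were 1281 ± 86.4 with DMSO and 518.5 ± 10.8 with ginkgolic acid (SD, n = 3 each), a 2.47-fold difference. On the log2(normalised read count + 1) scale the difference was -1.30 (SE 0.08, limma). In the authors' deposited table the log2 fold change was -1.31 and the adjusted p-value 1.36e-53, which are the values that placed the gene in the table. Set against each DMSO library in turn, the treated libraries lay between 37.4% and 44.6%.

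The treated libraries were close together in ODC1. Their coefficient of variation was 2.09%, below the 4.39% that counting alone would give at 490, 487 and 578 reads. With DMSO it was 6.75%, against 2.77% from counting. Among the 102 genes of the table with a mean of at least 100 normalised read counts, the treated spread of ODC1 ranked 101 from the highest. A coefficient of variation from 3 libraries is imprecise, here and for NME1 below, and its difference from counting error was not tested.

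NME1 (ENSG00000239672) lies on chromosome 17, from 51153536 to 51162428 on the plus strand of hg38, and is protein-coding. Its normalised read counts were 370.3, 417.5 and 379.3 in DMSO replicates 1, 2 and 3, and 159.0, 186.8 and 120.2 in ginkgolic acid replicates 1, 2 and 3. The groups did not overlap, with 183.6 between the lowest DMSO and the highest treated library, and treated replicate 3 was the lowest of all. The means were 389.1 ± 25.04 and 155.3 ± 33.4 (SD, n = 3 each), a 2.50-fold difference. The log2 difference was -1.34 (SE 0.15, limma), and the authors' deposited table gives -1.33 with an adjusted p-value of 7.66e-17. The treated libraries lay between 28.8% and 50.4% of single DMSO libraries, a wider range than for ODC1.

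The spread of NME1 was unequal between the groups. With ginkgolic acid its coefficient of variation was 21.5%, where counting alone would give 8.08%, and it ranked 11 from the highest among those 102 genes, whose median was 9.76%. With DMSO it was 6.44%, close to the 5.03% from counting. The reads before scaling were 150, 172 and 137 in the treated libraries and 370, 438 and 380 in the DMSO libraries. Treated replicate 3 had the fewest NME1 reads although it had the most reads over the table.

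**Figure D1:**
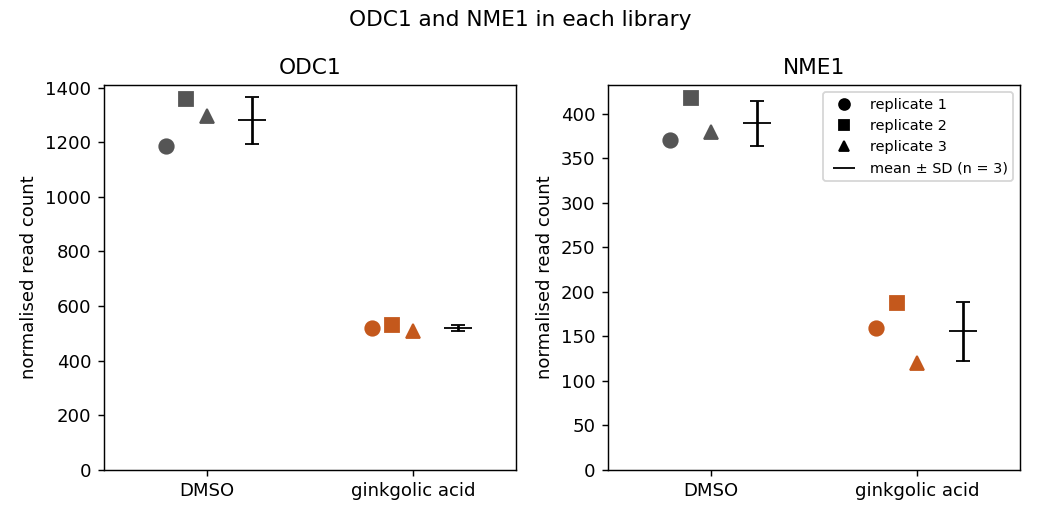
Normalised read counts of ODC1 (left) and NME1 (right) in each library, with symbols for replicate numbers and the mean ± SD of 3 libraries beside them; both axes start at 0 and differ in scale. Treated libraries of ODC1 lie within 507.3 to 528.9, while those of NME1 run from 120.2 to 186.8, and in neither gene do the groups overlap.

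The read assignment at NME1 carries a limit that ODC1 does not have. The annotated read-through gene NME1-NME2 overlaps NME1 on the same strand and continues into NME2, which encodes the nucleoside diphosphate kinase B. Of the 3438 exonic bases of NME1, the deposited length of the gene, 638 (18.6%) are also exonic in NME1-NME2. In the NME1 transcript of 940 bases whose coding sequence is as long as that of NME2 the share is larger, 44.5%, and it is 74.8% of the 456 coding bases (stop codon left out). The sources used here do not say how reads on shared bases were counted, so they may have been dropped, counted for either gene or counted for both. NME2 shares no exonic base with NME1.

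NME1 and NME2 are paralogs that are alike in coding sequence but share no long identical stretch. Over 456 coding bases, aligned with no gap, they are 80.9% identical, and the longest identical run is 23 bases. This run, gccatggtctgggaggggctgaa, shown because it is the longest exact match in that alignment, covers coding bases 223 to 245. Of the 3521 distinct 50-base words in NME1 transcripts, 0 occur in a transcript of NME2, 615 in NME1-NME2 and 3 in ZBTB37. Of the 3015 such words in ODC1 transcripts, 0 occur in a transcript of another gene. The small nucleolar RNA SNORA80B lies within ODC1 and is the only other gene annotated there. NME2 and NME1-NME2 were not analysed here, because the table does not hold them.

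**Figure D2:**
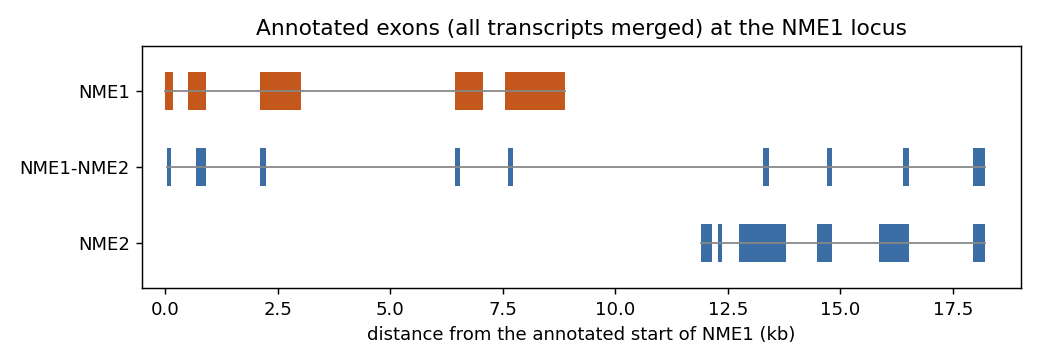
Annotated exons of NME1, of the read-through gene NME1-NME2 and of NME2, each with all transcripts merged, against the distance from the NME1 start in kb. The first exons of NME1-NME2 sit under the NME1 exons and its last ones above those of NME2, while NME1 and NME2 do not overlap.

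Within the table both genes stood near the middle of the lower genes by size of change and near the top by level. All 403 genes passed the authors' thresholds (100%), of which 150 were lower (37.2%), so passing says nothing particular of ODC1 and NME1. In the authors' deposited table the lower genes had a median log2 fold change of -1.30, with quartiles of -1.54 and -1.12, against -1.31 for ODC1 and -1.33 for NME1. By the size of the fall NME1 ranked 65 and ODC1 73 of the 150. The lower genes began at a log2 fold change of -1.01, so neither gene was at the edge of the selection. Groups without overlap in the lower direction were seen in 148 of the 150 lower genes (36.7% of all 403), and ODC1 and NME1 were among them. The trait was thus common to nearly all lower genes.

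By mean level over the 6 libraries ODC1 ranked 9 and NME1 19 of the 150 lower genes, whose median was 41.7 normalised read counts. By p-value in the authors' deposited table ODC1 ranked 5 and NME1 18 among the lower genes. The ratio of adjusted to raw p-values gives their place among all 16104 genes tested, which was 19 for ODC1 and 335 for NME1. ODC1 had the higher level and, with ginkgolic acid, the smaller spread between libraries.

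**Figure D3:**
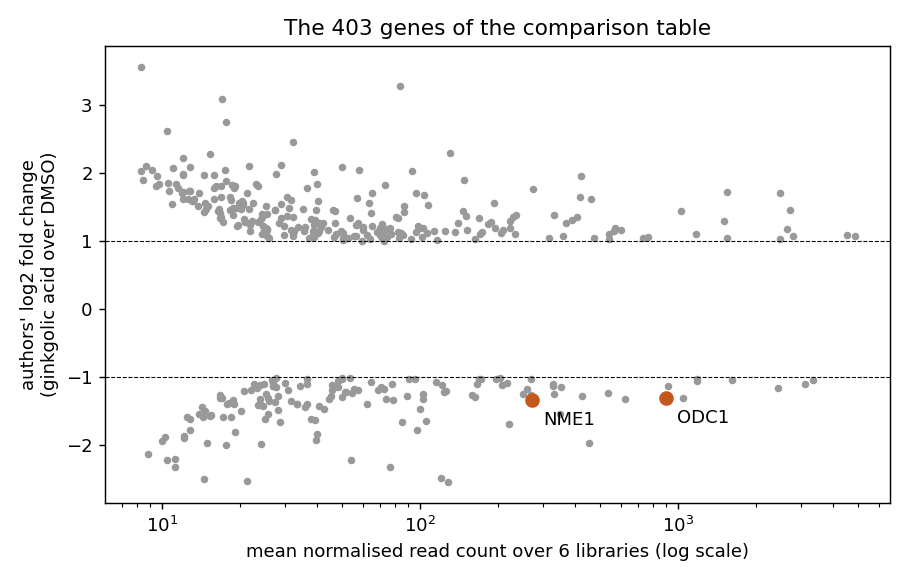
The authors' log2 fold change of each of the 403 genes against its mean normalised read count over 6 libraries (log scale), with the selection thresholds at 1 and -1 as dashed lines. ODC1 and NME1 lie at -1.31 and -1.33, to the right of most lower genes, whose median level was 41.7.

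Per kilobase of the deposited gene length, ODC1 had the higher level in both groups. ODC1 was at 431.5 ± 29.1 normalised read counts per kilobase with DMSO and at 174.7 ± 3.65 with ginkgolic acid (SD, n = 3 each). NME1 was at 113.2 ± 7.28 and 45.2 ± 9.72. With DMSO these levels ranked 10 for ODC1 and 34 for NME1 among the 403 genes. The level of NME1 per kilobase depends on how the shared exonic bases were counted.

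The ratio of the genes within a library does not depend on how libraries were scaled. The NME1 count was 31.2%, 30.8% and 29.2% of the ODC1 count in DMSO replicates 1, 2 and 3. With ginkgolic acid it was 30.6%, 35.3% and 23.7% in replicates 1, 2 and 3. The treated libraries lay on both sides of the DMSO libraries, so the groups overlapped. The means were 30.4% ± 1.03 and 29.9% ± 5.84 (SD, n = 3 each), and the mean log2 ratio differed by -0.04, less than the pooled SD of 0.21. Without ginkgolic acid replicate 3 that difference was 0.11. This does not show that the genes fell by the same factor.

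**Figure D4:**
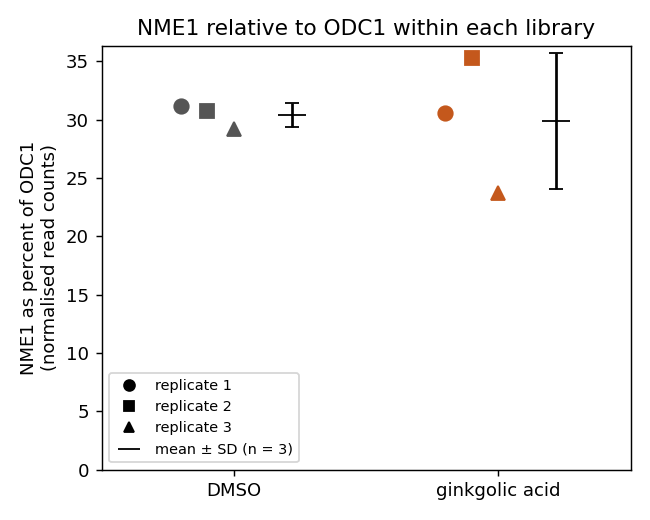
NME1 as a percentage of ODC1 in each library, from normalised read counts, with the mean ± SD of 3 libraries beside the points and the axis starting at 0. DMSO libraries lie between 29.2% and 31.2%, and treated libraries spread from 23.7% to 35.3% around them.

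The genes of the surrounding pathways were looked up in the table. Of 27 polyamine genes (synthesis, catabolism, antizymes, transport and hypusine formation) 1 was held, ODC1 itself, and of 10 nucleoside diphosphate kinase genes 1 was held, NME1. Among 63 genes of nucleotide synthesis and salvage, 2 were held, with RRM2 lower and CDA higher. Of 30 one-carbon genes and 13 genes of the MYC network 0 were held, and of 47 MYC-linked growth genes 2 were held, which were ODC1 and NME1. Over all 185 distinct genes 4 were held, 3 lower and 1 higher. That is 2.16% of the list genes, beside the 2.50% of all tested genes that the table holds. ODC1 and NME1 are 2 of the 4 and were themselves chosen from the table, so these shares are not like for like. The count says nothing particular of these pathways. A gene outside the table may still have changed, because selection required a log2 fold change above 1 in size.

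The nucleotide genes RRM2 and CDA differed in direction. RRM2, the small subunit of the ribonucleotide reductase that makes deoxynucleotides, was at 358.3, 420.4 and 361.4 normalised read counts with DMSO and at 181.2, 168.3 and 130.8 with ginkgolic acid in replicates 1, 2 and 3. Its groups did not overlap, and its treated mean was 42.1% of DMSO, beside 39.9% for NME1. NME1 acts after RRM2 in the same route, on the deoxynucleoside diphosphates that the reductase releases. CDA, the cytidine deaminase of pyrimidine salvage, went the other way, at 69.1, 69.6 and 49.9 with DMSO and 256.5, 221.5 and 222.0 with ginkgolic acid, a 3.71-fold higher mean. Reads of RRM2 are less certain than those of ODC1 and CDA. Of its 50-base words 20.3% occur in transcripts of other genes, the overlapping AC007240.1 foremost, against 0% for ODC1 and CDA.

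**Figure D5:**
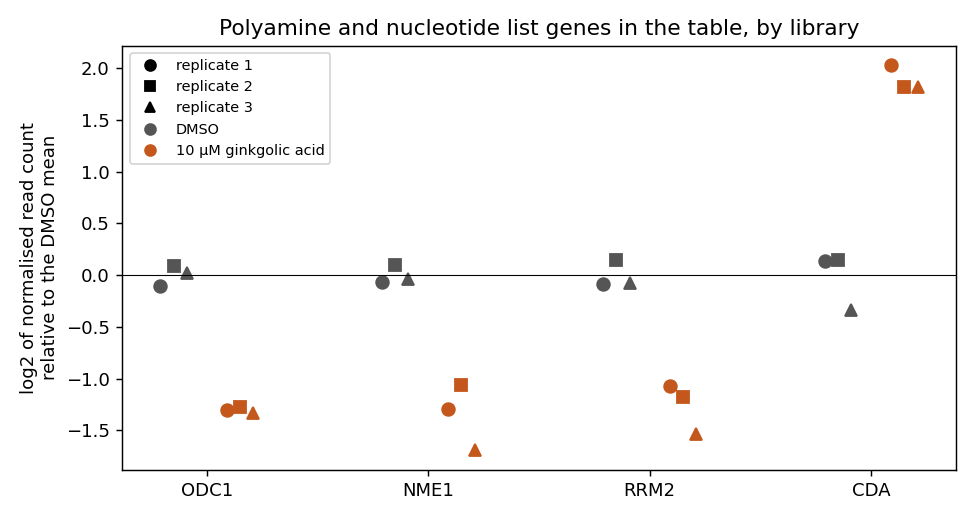
Normalised read count of each library relative to the DMSO mean of the gene, on a log2 scale, for ODC1, NME1 and the nucleotide genes RRM2 and CDA; grey marks DMSO, orange ginkgolic acid, and symbols give replicate numbers. The lowest point is NME1 in treated replicate 3, at -1.69, and the treated libraries of CDA lie between 1.82 and 2.03.

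The genes closest in pattern were found by the root mean square difference of centred log2 values over the 6 libraries, among 101 other genes with a mean of at least 100. RRM2 was closest to NME1, at a difference of 0.11, followed by ACOX2 (0.14), ODC1 (0.17), KYNU (0.18) and ANXA10 (0.19). Treated replicate 3 was the lowest library of NME1 and RRM2. It was also the lowest of ODC1, by a smaller margin (507.3, against 519.3 and 528.9 in treated replicates 1 and 2). ODC1 was closest to AL590666.2, an antisense transcript by the deposited biotype that lies opposite BCAN, at 0.08. Without a stated strand setting, reads on any exonic bases that this pair shares cannot be told apart, and that share was not computed. It was followed by SSTR5 and ACOX2 (0.10 each), by KYNU (0.10) and by PDF (0.11), and NME1 ranked 22 in its order at 0.17. ACOX2, a peroxisomal oxidase, and KYNU, the kynureninase of tryptophan breakdown, were near both genes. These differences are descriptions of genes selected on the same groups, and they show no shared function or control.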

How the data were processed

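The submitters' processing notes name, for hg38, DESeq2 1.20.0, featureCounts 1.5.0-p3, HISAT2 2.0.5, CASAVA 1.8 and fastp. Their settings and whether strand was kept are not stated. The authors deposited a signal per library with no stated unit. Its values are whole multiples of 1 step per library (100% of values, tolerance 1e-06), as reads over a size factor would be. The deposited file headed FPKM holds the same values. The log2 fold changes, p-values and adjusted p-values are the authors' deposited ones. Positions of all 403 genes equal those of GENCODE release 29.

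The members and gene lists were chosen with earlier results of these data known. One list gene is not reported here and is left out of the list counts. Values were taken as log2(value + 1), and a limma fit with an intensity trend (limma 3.58.1, R 4.3.3) was made over 403 genes. Its SEs pool the spread of both groups and draw on the variances of these genes, which were selected on the same contrast. A minimum mean of 1 removed 0 genes. The fit was tested on simulated data. No p-value of this fit is printed. Named genes were ODC1, NME1, every held member of the pathway lists, the 5 genes closest to each and the genes overlapping them. Python 3.11.15, numpy 2.4.6, pandas 2.3.3 and matplotlib 3.10.9 were used. Motifs were searched as exact letters on both strands.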

Additional observations from a re-analysis of the deposited data

How the results depend on the processing

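The direction of ODC1 and NME1 was the same under each alternative run. Both were selected for a large difference in these libraries, and their groups did not overlap. Leaving out 1 library could therefore not have reversed the direction, and its constancy is no independent support. Rescaling to the median ratio over the genes held gave log2 differences of -2.20 for ODC1 and -2.24 for NME1, since by its construction it centres libraries on selected genes that are mostly higher. Leaving out 1 library gave -1.35 to -1.26 for ODC1 and -1.48 to -1.17 for NME1, the last without ginkgolic acid replicate 3. The difference in the log2 ratio of NME1 to ODC1 ran from -0.17 to 0.11, and it changed sign without ginkgolic acid replicate 3 (0.11). At a log2 fold change of at least 1.5 in size, 0 of the 3 lower list genes and 1 of the 1 higher were left. By Pearson correlation 2 of the 5 genes closest to ODC1 and 2 of the 5 closest to NME1 were named again, and with a minimum mean of 1000 they were 1 and 2. Same-numbered libraries deviated from their group means with correlations of -0.03, 0.00 and -0.07 over 403 genes, so the numbers were not taken to pair them. With a replicate block the log2 differences were -1.30 (SE 0.09) for ODC1 and -1.34 (SE 0.14) for NME1. A count model was planned and not run, because reads could only be inferred from normalised values. Counting alone gives NME1 a coefficient of variation of 8.08% with ginkgolic acid, against the 21.5% observed.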
